A study of Rattus norvegicus with 2 samples.

Results

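Far intergenic peaks are peaks of histone H3 lysine 18 lactylation (H3K18la) that lie outside annotated genes and more than 100 kb from the nearest annotated transcription start site (TSS). They were taken from the peak list of 1 chromatin immunoprecipitation sequencing (ChIP-seq) library of rat myocardium. A peak entered the set when its annotation was intergenic and the distance from its centre to the nearest TSS exceeded 100 kb. Peaks whose nearest gene was a named microRNA gene were left out, which removed 12 peaks. The set held 1212 of 28706 peaks, a share of 4.22% (95% Wilson interval 4.0 to 4.46%), and 10.3% of the 11803 intergenic peaks. The members covered 551 kb, or 3.68% of all bases under peaks.

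The myocardium came from male Wistar rats with constriction of the abdominal aorta (AAC), in which silk ties the aorta together with a wire above the renal arteries and leaves a narrowed vessel. The study lists 1 ChIP library and 1 input library of this model, both numbered 3. The input library holds chromatin without immunoprecipitation, and its values were not analysed here. The ChIP antibody is given by catalogue number only, so H3K18la as its target rests on the study's title. The age of the rats, the time after surgery and the number of animals behind the library are not given in the sources used here. The study's title speaks of electrical stimulation of the vagus nerve, and the labels of these libraries do not say whether any animal received it. Heart tissue holds cardiomyocytes, fibroblasts, endothelial and other cells, and a peak does not tell which of them carried the mark. No second ChIP library and no unconstricted group were analysed here, so no test between conditions or replicates could be made, and each value describes this library.

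Lactylation is an acyl mark that cells can place on histone lysines from lactate, the end product of glycolysis. H3K18la is known from active promoters and from active enhancers, the regulatory elements that can lie far from the genes they act on. A distal enhancer can skip the nearest gene, so the nearest gene named here is a position and not a target. Sequences of the peaks are not printed, since no genome of build rn6, the build of the coordinates, was at hand.

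Most members lay not far beyond the limit. The distance to the nearest TSS had a median of 145 kb, with quartiles at 117 and 193 kb. The closest stretch, from 100 to 125 kb, held 405 members, and 280 members lay beyond 200 kb. Only 4 lay beyond 500 kb and 2 beyond 1 Mb. The 3 members just inside the limit were a Fam43a peak at 100026 bp with 5.18-fold enrichment, a Phlda1 peak at 100117 bp with 5.35-fold and an AABR07064980.1 peak at 100117 bp with 5.68-fold. The 3 intergenic peaks just outside it were near a U6 gene at 99922 bp (4.51-fold), near Plekha5 at -99899 bp (3.75-fold) and near Sh3bp4 at -99750 bp (4.03-fold), where a negative distance is upstream. Fold enrichment is the authors' value per peak, the signal at the summit over the local background expected by the peak caller. Of all 1946 peaks more than 100 kb from a TSS, 722 were not of the intergenic class.

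Upstream of the TSS lay 614 members (50.7%, 95% Wilson interval 47.8 to 53.5%) and downstream 598. Large groups on 1 side weigh on this split. Without the 75 members nearest to AABR07064980.1, all of them downstream, 54.0% lay upstream (51.1 to 56.9%). Other groups also lay on 1 side, such as 31 Ptprg and 26 Plcb4 members upstream and 24 Fam43a and 21 Rgcc members downstream. The split without those was not computed. Of the 7564 intergenic peaks at 10 to 100 kb, 60.4% lay upstream (59.3 to 61.5%), and of the 2940 within 10 kb, 79.4% did (77.9 to 80.8%). Peaks inside gene bodies are not intergenic, so downstream positions within a gene are not counted in these shares.

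**Figure D1:**
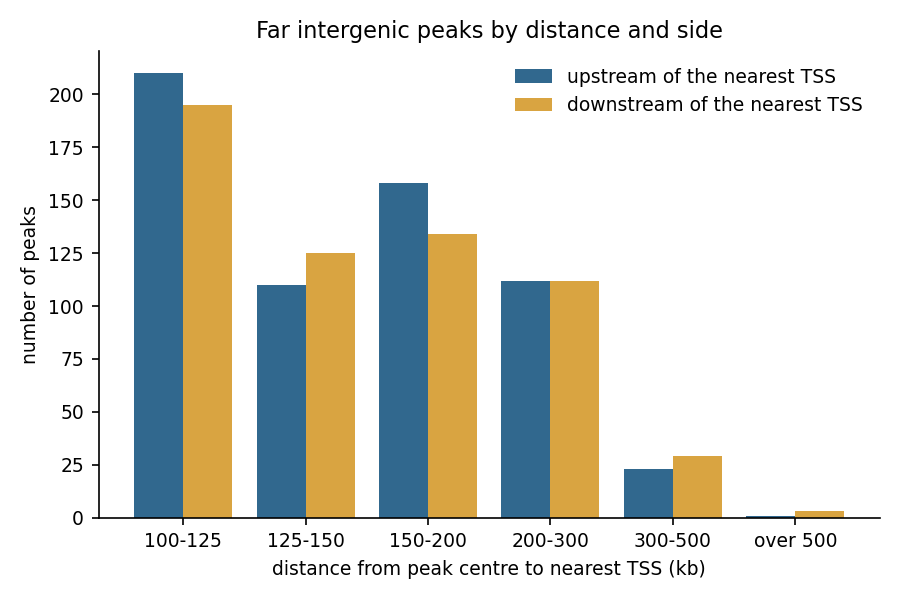
Number of far intergenic peaks (vertical axis) by distance from peak centre to the nearest TSS in kb (horizontal axis; the bins differ in width), upstream (blue) and downstream (yellow). The first bin holds 210 upstream and 195 downstream peaks, and beyond 500 kb there are 1 and 3.

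Far intergenic peaks were about as enriched as peaks elsewhere, and slightly narrower. Their median fold enrichment was 4.07 (95% order-statistic interval 4.03 to 4.16), with quartiles at 3.62 and 4.67 and a range from 1.58 to 8.41. All other peaks had a median of 4.13, intergenic peaks at 10 to 100 kb 4.15, those within 10 kb 4.21, intron peaks 4.11 and promoter peaks 4.09. The median width was 342 bp (330 to 358 bp) against 377 bp for all other peaks. These differences are small beside the spread of single peaks, and the intervals cover the choice of peaks within 1 library and no variation between animals. Within the set, median fold enrichment was 4.07 at 100 to 125 kb, 4.09 at 125 to 150 kb, 4.13 at 150 to 200 kb, 3.97 at 200 to 300 kb and 4.14 at 300 to 500 kb, with no steady course with distance.

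The reads behind each peak could be recovered. The deposited fold enrichment and p together fix the summit pileup, the number of reads stacked at the summit, and the local background, the number expected there, because the caller adds 1 to both before it divides. Exactly 1 whole pileup was found for 28703 of 28706 peaks and for 1210 of the 1212 members. The median member had 13 reads at its summit (quartiles 11 and 16) over a background of 2.55 (quartiles 1.87 and 3.06). All other peaks had a median of 14 reads, and promoter peaks had 17 over a background of 3.40. Dividing pileup by background without the added 1 gave a median of 5.49 for the members and 5.43 for all other peaks, so the small difference in fold enrichment turned its sign. A pileup of 13 reads alone has wide counting error. For the Fam43a peak at the limit, with 13 reads, the exact 95% Poisson interval was 6.92 to 22.2 reads.

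**Figure D2:**
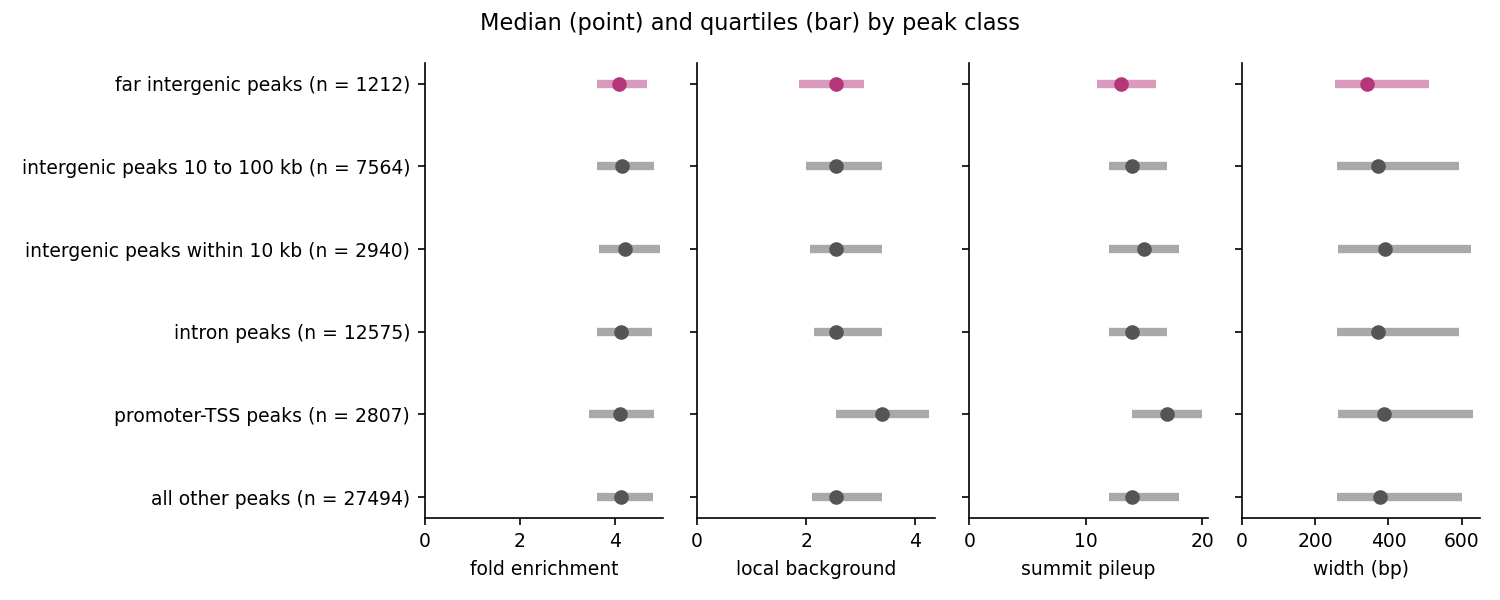
Median (point) and quartiles (bar) of fold enrichment, local background (expected reads), summit pileup (reads) and width (bp) in far intergenic peaks (pink) and 5 other sets of peaks (grey). The fold enrichments overlap almost fully, with a median of 4.07 in far intergenic peaks, while promoter peaks have a higher background of 3.40.

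The shares of strong, wide and highly significant peaks among the members were near or below those of the whole list. At a fold enrichment of 6 or more there were 63 members, 5.20% (95% Wilson interval 4.08 to 6.60%), against 6.31% of all peaks, which lies inside that interval. At a −log10 q of 5 or more, where q is the caller's p adjusted for multiple testing, there were 304 members, 25.1% (22.7 to 27.6%), against 32.0% of all peaks. A width of 1000 bp or more was reached by 73 members, 6.02% (4.82 to 7.51%), against 9.22% of all peaks. At a fold enrichment of at least 8 there were 5 members among 223 peaks, where members made up 4.22% of all peaks. None of the 28 peaks of at least 10 was a member. The strongest member ranked 127th in the whole list, and the 1000 strongest peaks held 36 members (3.60%).

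The 10 strongest members ranged from 7.78-fold to 8.41-fold. The first lay at chr14:5245738-5247304, 129 kb from an unnamed small nucleolar RNA gene, with 26 reads over a background of 2.21. Next, at 8.33-fold, came the widest member, 5583 bp at chr7:104962525-104968107, 137 kb upstream of the long noncoding RNA gene AABR07058210.1, with 30 reads (exact 95% Poisson interval 20.2 to 42.8) over 2.72. A Fam43a peak at chr11:73448598-73449882, 230 kb downstream of that gene, also reached 8.33-fold, with 28 reads (18.6 to 40.5) over 2.48. The others lay nearest to AABR07001555.1 (8.23-fold), AABR07043001.1 (8.15-fold), a 5S_rRNA gene (7.93-fold), AABR07068308.1 (a pair of peaks at 7.89-fold), AABR07064980.1 (7.85-fold) and Plcb4 (7.78-fold). Their pileups ran from 21 to 31 reads, so their counting intervals overlap and their order is not resolved. For 7 of the 10 the nearest gene was a clone-named or unnamed model, where 49.6% of all members had an unnamed, clone or locus placeholder gene. Another peak lay within 12.5 kb of 9 of the 10, beside 76.4% of all members and 80.3% of all peaks.

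After the AABR07058210.1 peak, the widest members were a 3244 bp peak 156 kb upstream of Plcb4 (7.0-fold), a 2640 bp peak 113 kb upstream of Hes1 (3.61-fold), a 2372 bp peak 196 kb downstream of Fam43a (6.86-fold) and a 2293 bp peak near AABR07028394.1 (4.92-fold). Hes1 is a transcriptional repressor and a classical target of Notch signalling. The Hes1 peak was wide without being strong: its 21 reads stood over a background of 5.10. Of the 515 peaks of 2 kb or more in the list, 9 were members, where members made up 4.22% of all peaks.

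A set of 3 members stood apart from all others in read number. The peak at chr13:33504657-33504880, 644 kb upstream of AABR07020651.1, had a pileup of about 7819 reads over a background of 4484, a 1.74-fold enrichment. A pair of peaks near Ythdc2, which encodes an RNA helicase that reads a methyl mark on RNA, lay at chr1:180808652-180808865 (5822 reads over 3682, 1.58-fold) and chr1:180806689-180806938 (about 4157 over 2446, 1.70-fold). Their −log10 q of 433, 224 and 209 were the 3 highest of the whole list, although these 3 were the least enriched members. The other 1209 members had backgrounds from 1.40 to 9.35, pileups from 7 to 52 and −log10 q of at most 21.3. In the whole list 7 peaks had a background over 20. Ythdc2 was also the nearest gene of the farthest members, at 1332 and 1334 kb. The sequence of these places was not analysed here.

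**Figure D3:**
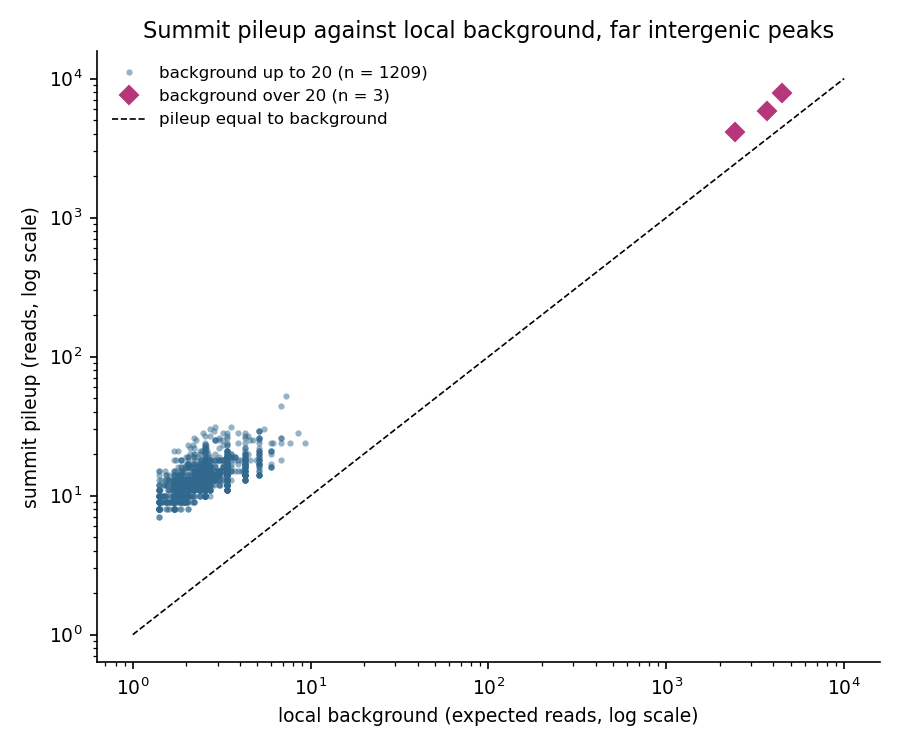
Summit pileup (reads, vertical log axis) against local background (expected reads, horizontal log axis) of the 1212 far intergenic peaks, with a dashed line where both are equal. The 1209 peaks in blue have backgrounds of at most 9.35, and the 3 pink diamonds sit at backgrounds from 2446 to 4484, close to the line.

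Most far intergenic peaks lay close to another peak. Another peak of any class lay within 12.5 kb of 926 members, 76.4% (95% Wilson interval 73.9 to 78.7%), beside 80.3% of all peaks, 81.9% of intergenic peaks at 10 to 100 kb and 66.4% of promoter peaks. The median gap to the nearest other peak was 978 bp for members and 793 bp for all other peaks. Joining members at most 12.5 kb apart gave 518 runs. Of these, 300 were single peaks, 162 held 2 to 4 peaks and 56 held 5 or more. The 56 runs held 483 members (39.9%), with a median fold enrichment of 4.09 and a median width of 395 bp. Single peaks had 4.04 and 297 bp, and 2.33% of them reached 6-fold against 7.25% in the runs of 5 or more. Whether close neighbours are pieces of 1 broad domain was not tested. The intervals of shares and medians count each member as 1 unit, also within a run. They make no allowance for this grouping and may be too narrow.

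The members named 370 genes out of 8554 genes with any peak (4.33%), which is 3.28 members a gene beside 3.35 peaks a gene over the whole list. Of these 370 genes, 177 had 1 member (47.8%), 126 had 2 to 4 and 67 had 5 or more (18.1%), and those 67 genes took 689 members (56.8%). Over all peaks the shares were close to these: 45.0% of genes had 1 peak and 19.8% had 5 or more, and the latter took 59.1% of peaks. The 10 genes with the most members took 269 (22.2%), out of far fewer genes than the whole list has. For 601 members (49.6%, 95% Wilson interval 46.8 to 52.4%) the nearest gene was unnamed or had only a clone or locus placeholder as its name, against 22.7% of all peaks and 36.5% of intergenic peaks at 10 to 100 kb. Long intergenic noncoding RNA genes were nearest for 20.5% of members, beside 9.43% of all peaks and 19.8% of intergenic peaks at 10 to 100 kb. Protein-coding genes were nearest for 61.6%.

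A gene with a far member often had no peak at its own start. Of the 370 genes, 74 (20%) also had a peak within 1 kb of their TSS. This was 28.9% for genes with an intergenic peak at 10 to 100 kb and 52.0% for all genes with any peak. The 52.0% counts genes that entered through a peak within 1 kb, which raises it by construction. Among the 169 genes with a regular symbol, 62 (36.7%) had a peak within 1 kb, against 41.2% of the 1513 symbol genes with an intergenic peak at 10 to 100 kb. For 146 genes (39.5%), 47 of them with a symbol, the far members were the only peaks.

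**Figure D4:**
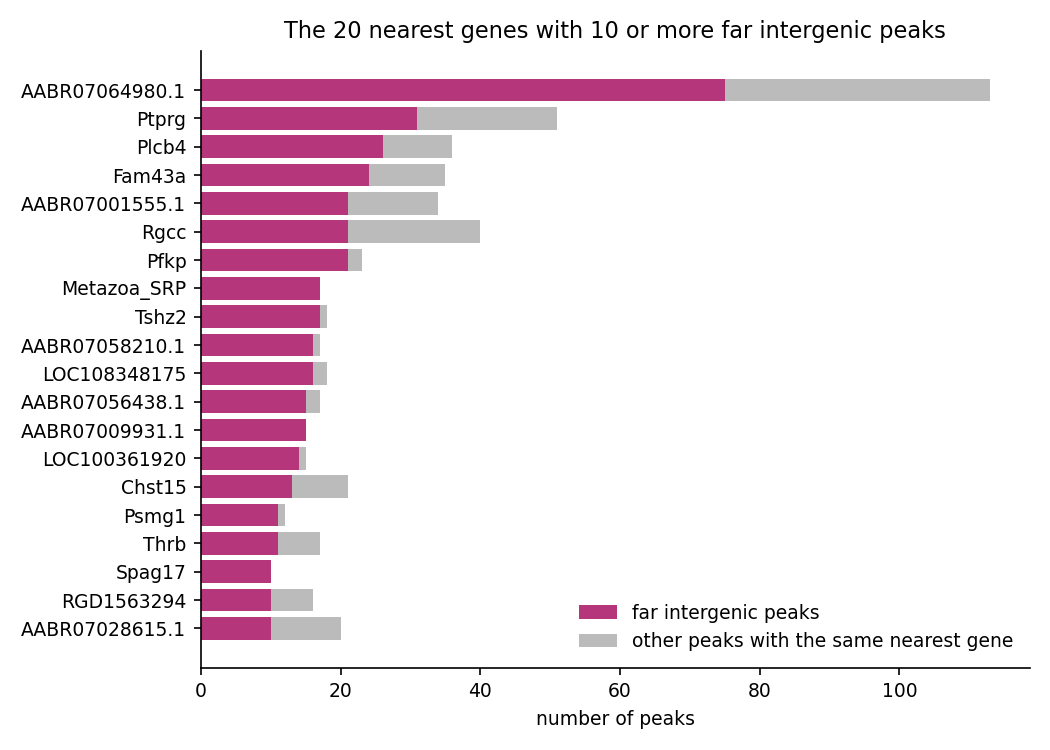
Number of peaks (horizontal axis) for the 20 nearest genes with 10 or more far intergenic peaks: far intergenic peaks in pink, other peaks with the same nearest gene in grey. AABR07064980.1 leads with 75 of 113 peaks, followed by Ptprg with 31 of 51 and Plcb4 with 26 of 36.

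The largest group by nearest gene lay on chromosome 6. The 75 members nearest to AABR07064980.1, a clone-named protein-coding model, spread over 238 kb at chr6:102849858-103087615, from 100 to 337 kb downstream of its TSS. Their median fold enrichment was 4.09, from 2.73 to 7.85. Of the 75, 6 reached 6-fold, beside 5.20% of all members and 6.31% of all peaks. The other 38 peaks of this gene, all intergenic, had a median of 4.34. The longest run of the whole set lay in this group, 49 peaks over 108 kb at chr6:102956861-103064653 with 20.6% of its bases under peaks. A second run of 13 peaks covered 41.0 kb at chr6:102849858-102890896, with a maximum of 7.56-fold.

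The intergenic class of these 75 peaks, like that of all members, rests on the rn6 annotation alone. The class under a newer annotation was not analysed here. Without these 75 peaks the set holds 3.97% of the remaining peaks in the list.

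Ptprg, which encodes a receptor-type protein tyrosine phosphatase, had the most members of any gene with a symbol. All 31 lay upstream, 101 to 284 kb from the TSS, with a median of 4.09-fold and a range from 2.73 to 6.65. A run of 20 of them at chr15:13329801-13366149 covered 36.3 kb, with 33.1% of its bases under peaks. The strongest, at chr15:13356374-13358611, was 2238 bp wide and had 26 reads over 3.06. The other 20 Ptprg peaks had a median of 4.28-fold, and the highest of these, at 6.85-fold, was a promoter peak at chr15:13228811-13229429 with 21 reads over 2.21.

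Plcb4, a phospholipase C of the beta class that acts below G protein-coupled receptors, had 26 members, all upstream, 109 to 267 kb away. Their median was 4.50-fold, from 3.24 to 7.78, and 4 of the 26 reached 6-fold, beside 6.31% of all peaks. Of the 26 members, 20 formed a run over 38.5 kb at chr3:128489873-128528347. The start of the related gene Plcb1 was 335 kb away on the other side. Plcb1 reads toward the run, and its GRCr8 model spans 711 kb. Whether Plcb4 members lie inside Plcb1 under that model was not tested. No Plcb4 peak of any class lay within 1 kb of the TSS, and its 10 other peaks had a median of 4.11-fold.

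Fam43a and Rgcc had their members on the downstream side. The 24 Fam43a members lay 100 to 236 kb away, with a median of 4.63-fold. Of the 24, 4 reached 6-fold, beside 6.31% of all peaks. The 8 GRCr8 models that start between Fam43a and Xxylt1, the next gene with a placed TSS, are all long noncoding. The 21 members of Rgcc, a regulator of the cell cycle, lay 107 to 197 kb away with a median of 4.55-fold. A run of 20 of them covered 54.0 kb at chr15:61403950-61457947. The 19 other Rgcc peaks had a median of 4.23-fold and reached 10.2-fold, above the highest member at 6.69-fold. Vwa8 starts 298 kb from the first Rgcc member on the other side and reads toward it, and its GRCr8 model spans 324 kb. Whether Rgcc members lie inside Vwa8 under that model was not tested.

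**Figure D5:**
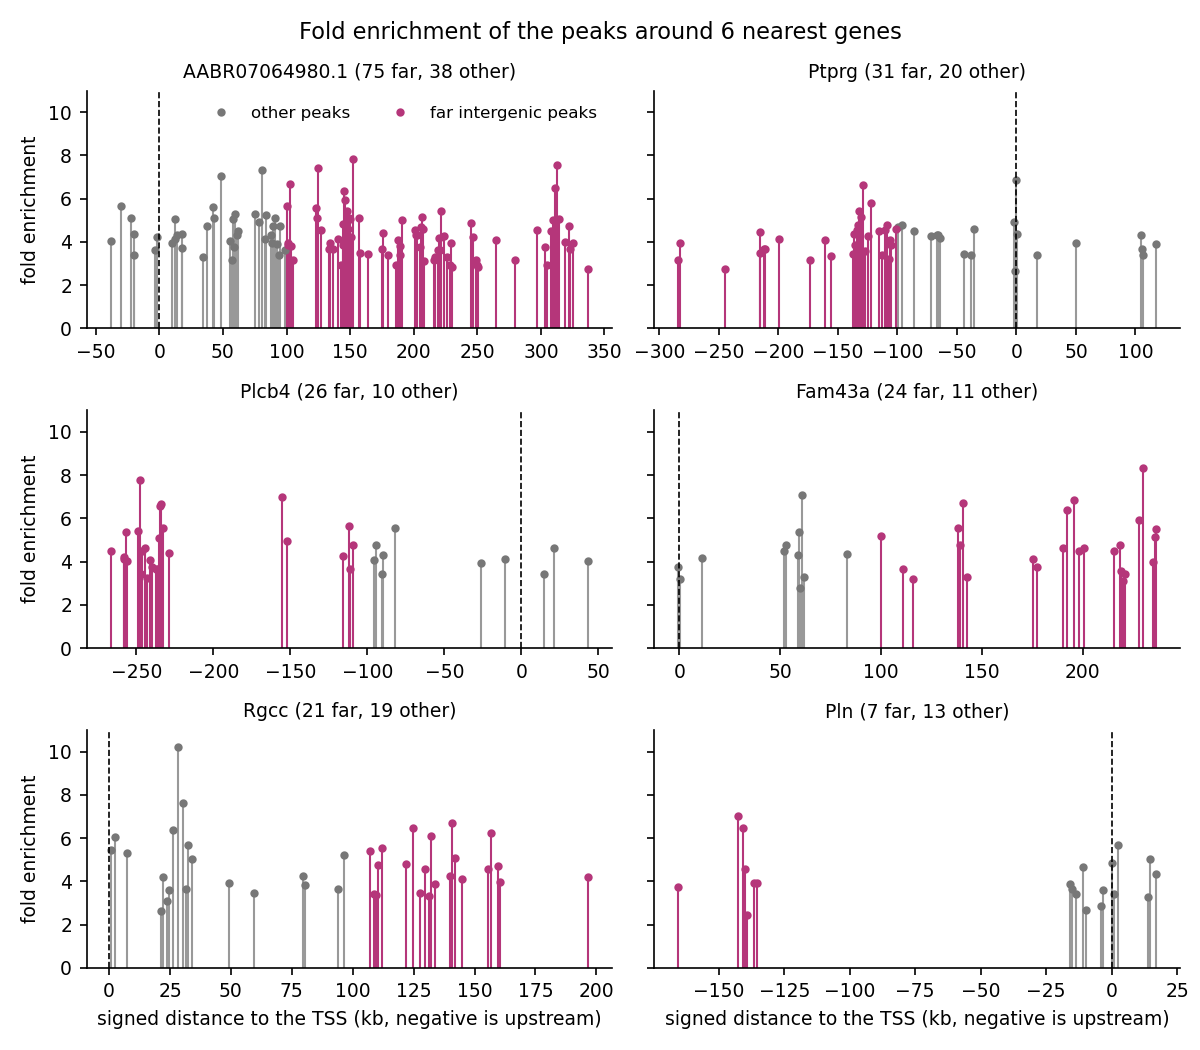
Fold enrichment (vertical axis) of each peak against its signed distance to the TSS in kb (horizontal axis; negative is upstream, the dashed line is the TSS) for 6 nearest genes, with far intergenic peaks in pink and other peaks in grey. Ptprg, Plcb4 and Pln have their far peaks upstream only, and AABR07064980.1, Fam43a and Rgcc downstream only.

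Members of other genes were also grouped. Of the 16 members near the noncoding gene AABR07058210.1, 14 formed a run over 26.6 kb at chr7:104959269-104985898, which holds the widest member of the set and has 38.5% of its bases under peaks. Pfkp, the platelet type of phosphofructokinase and so an enzyme of glycolysis, had 21 upstream members at 141 to 323 kb (median 4.07-fold, highest 5.89-fold) and only 2 other peaks, none within 1 kb of its TSS. Tshz2, a zinc finger transcription factor, had 17 upstream members with a median of 3.62-fold and a highest of 5.0-fold. Chst15, a sulfotransferase of chondroitin sulfate, had 13, all in 22.1 kb at chr1:204426871-204448986, with a median of 3.64-fold and 1 peak of 7.53-fold. The 10 members of Spag17, a protein of motile cilia, sat in 13.1 kb, included 1 peak of 7.04-fold and were the only peaks of that gene.

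At Psmg1 and Thrb the gene on the other side is a known regulator. The 11 members nearest to Psmg1, a chaperone of proteasome assembly, lay between it and Ets2, a transcription factor of the ETS family whose TSS was 133 kb from them, and their median was 4.26-fold. One run of 12 members held these 11 and 1 member assigned to Ets2. The 11 Thrb members, upstream of this thyroid hormone receptor gene at 117 to 243 kb, had a median of 3.66-fold and a highest of 4.81-fold. The next placed TSS beyond them was that of the retinoic acid receptor gene Rarb, 791 kb away.

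Members were spread unevenly over the chromosomes. Chromosome 1 had the most, 128 of its 3295 peaks (3.88%, 95% Wilson interval 3.28 to 4.60%). The highest shares were on chromosome 15 (88 of 856, 10.3%), chromosome 11 (65 of 813, 8.0%) and chromosome 17 (88 of 1142, 7.71%). A few genes held many of these members. On chromosome 15 they were Ptprg (31), Rgcc (21) and Thrb (11), on chromosome 11 Fam43a (24) and Psmg1 (11), and on chromosome 17 Pfkp (21). The shares of these 3 chromosomes without such groups were not computed. Chromosome 10 had 7 of 1996 (0.351%, 0.170 to 0.722%). Chromosome 6 had 127 of 1789 (7.10%), and without the 75 peaks of AABR07064980.1 it had 52 of 1714 (3.03%). None of the 46 peaks on unplaced scaffolds was a member. Gene density per chromosome was not measured here.

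Gene lists for the heart, for lactate and glycolysis and for other cell types were searched for nearest genes of members. Of the 440 distinct genes in 16 lists, 16 had a member (3.64%), beside 0.726% of the 23154 protein-coding genes of GRCr8. Of these 440 genes, 247 had any peak, so a member was found for 6.48% of list genes with a peak (95% Wilson interval 4.03 to 10.3%), beside 2.68% of all protein-coding genes with a peak. An intergenic peak at 10 to 100 kb was found for 75 of the 440 list genes, also a higher share than the 6.60% of protein-coding genes. Among genes with any peak, these counts were 75 of 247 list genes and 1529 of 6267 protein-coding genes. A higher share of list genes was thus seen at both distances, and the size of the excess was not compared between them. The lists were chosen with results of this peak list in view, so these shares are descriptions. As for the tissue, 25 of 34 genes of the cardiac sarcomere and calcium handling had a peak of any class, and 17 had one within 1 kb of the TSS. For immune cell genes these counts were 4 and 0 of 30, and for liver genes 4 and 1 of 20. Endothelial genes had more, 22 and 20 of 24, and fibroblast and matrix genes had 10 and 3 of 26. Smooth muscle and pericyte genes had 10 and 6 of 17, adipocyte genes 6 and 3 of 12, and nervous system genes 4 and 1 of 30. Over all protein-coding genes, 27.1% had a peak and 17.1% had one within 1 kb.

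Of the genes of cardiomyocyte function, Pln and Cacna1c had members. Pln encodes phospholamban, which restrains the calcium pump of the sarcoplasmic reticulum. Its 7 members lay upstream, and 6 of them sat between 136 and 143 kb from the TSS. In order toward the gene, the 7 had fold enrichments of 3.75, 7.04, 6.48, 4.57, 2.45, 3.94 and 3.94. The 2 strongest were adjacent, at chr20:34489839-34491266 with 24 reads over 2.55 and at chr20:34491829-34492852 with 22 over 2.55. Both exceeded every other Pln peak: the 13 other peaks ran from 2.67-fold to 5.69-fold, and the 1 at the TSS was 4.85-fold with 22 reads over 3.74. Counting error of about 20 reads leaves the order of these peaks unresolved. Cacna1c, the pore of the cardiac L-type calcium channel, had members at 164 kb (4.70-fold) and 209 kb (3.18-fold) upstream.

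The promoters of Ptprg and Pln are shown because both genes combine a group of far members with a peak that overlaps the 250 bases upstream of their rn6 TSS. The printed sequences are the 250 bases before the gene start in RefSeq, build GRCr8, read 5′ to 3′ on the gene's strand. They come from chr15:15982582-15982831 (minus strand) for Ptprg and chr20:33172244-33172493 (plus strand) for Pln. Whether these gene starts match the rn6 TSS was not tested. Capitals mark a match to a searched motif.
Ptprg: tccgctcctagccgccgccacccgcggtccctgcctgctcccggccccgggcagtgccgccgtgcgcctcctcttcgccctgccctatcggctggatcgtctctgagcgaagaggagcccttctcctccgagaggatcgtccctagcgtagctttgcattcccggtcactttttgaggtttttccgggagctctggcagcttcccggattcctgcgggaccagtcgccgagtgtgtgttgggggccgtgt
Pln: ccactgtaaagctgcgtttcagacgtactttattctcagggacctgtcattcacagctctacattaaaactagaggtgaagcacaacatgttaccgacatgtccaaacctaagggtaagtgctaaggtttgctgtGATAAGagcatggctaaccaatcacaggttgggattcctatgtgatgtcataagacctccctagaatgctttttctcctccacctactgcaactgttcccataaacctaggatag

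These sequences differ in base composition. The Ptprg stretch had 66.4% G and C and 24 CpG dinucleotides, and the Pln stretch had 44.0% and 3, beside a median of 52.0% over 27457 RefSeq promoters. On both strands, 5 motifs were searched. The GATA motif (GATAAG) was found in 6.07% of all promoters of this length. The MEF2 motif was found in 3.43%. The AP-1 motif (TGANTCA) was found in 6.36%. The GC box (GGGCGG) was found in 32.4%. The TATA box (TATAAA) was found in 13.1%. Pln held 1 GATA motif, which overlaps none of the others, and Ptprg held none of the 5. A match describes letters and is no evidence of binding.

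Of the lists of hypertrophic growth, glucocorticoid-induced and immediate-early genes, 1 gene each had a member. Hdac9, a histone deacetylase that represses MEF2 factors, had 1 peak just beyond the limit (4.36-fold). Errfi1, a feedback inhibitor of the epidermal growth factor receptor, had 4 upstream peaks at 119 to 125 kb of 3.62-fold to 5.39-fold. Klf6, a zinc finger transcription factor induced early after stimulation, had 2, at 196 kb (5.23-fold) and 346 kb (4.61-fold) downstream, both with no other peak within 100 kb.

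On chromosome 13 a group of 4 members was split between neighbouring genes. Inhbb, the beta B subunit of activins and inhibins, had 2 members at 191 and 193 kb downstream of its TSS (5.93-fold and 4.32-fold). Gli2, a transcription factor of hedgehog signalling, had 2 at 187 and 189 kb upstream of its own (4.79-fold and 4.44-fold). The 4 peaks lie at chr13:35235346-35251301, near the midpoint between the genes, where the nearest gene changes within 20 kb.

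Glycolysis and lactate genes with members were Pfkp, with the 21 peaks given above, and Pfkfb3, which makes an activator of phosphofructokinase, with 1 peak at 130 kb (5.14-fold, 12 reads over 1.53). No other gene of the 31 in that list had a member, while 23 of the 31 had a peak of some class. Among guidance and adhesion genes, the transmembrane semaphorin Sema6a had 6 members of 3.41-fold to 4.53-fold, Pcdh7 had 1 (4.58-fold) and the ephrin receptor Epha4 had 1 (3.44-fold).

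Endothelial and fibroblast lists had members near transcription factors. Mecom had 2 (4.51-fold and 4.23-fold) and Ets2 had 1 (4.0-fold, 20 reads over 4.25). Tcf21, a factor of the epicardial and fibroblast lineage, had 1 at 162 kb upstream (3.50-fold). Ccn2, the connective tissue growth factor, had 2 upstream at 100 and 132 kb (3.66-fold and 3.70-fold, 9 reads each).

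In 7 of the 16 lists no gene had a member: cardiac transcription factors (0 of 32), mitophagy and autophagy (0 of 38), smooth muscle and pericyte (0 of 17), immune cell (0 of 30), nervous system (0 of 30), liver (0 of 20) and adipocyte (0 of 12). Cardiac transcription factors nevertheless had peaks of some class at 19 of 32 genes and intergenic peaks at 10 to 100 kb at 8. Mitophagy and autophagy genes had a peak at 24 of 38. A count of 0 of 32 genes has a 95% Wilson upper bound of 10.7%, far above the 0.726% over protein-coding genes, so these lists could not show fewer members than the background.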

How the data were processed

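The submitters' processing notes name MACS2 and HOMER, besides Bowtie2, SAMtools, FastQC, Trim Galore and deepTools, and the build rn6. Versions, the order of steps and the use of the input in the call are not given in the sources used here. A path in the header names a call at q 0.05, and peak names carry 1 sample name. Per the file headers, the deposited fold enrichment is a ratio to local background, while p and q were deposited on a −log10 scale. The deposited score copies q and was not used. HOMER classes, nearest genes and distances are the authors'. Total depth is unknown.

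The members and lists were chosen with earlier results of these data known. Peaks were joined by name in Python 3.11.15 (pandas 2.3.3, scipy 1.17.1). Summit pileup k and background were solved from fold = (k + 1) / (background + 1) and the Poisson p, checked on simulated peaks. Below 10, 1814 of 1828 distinct backgrounds (99.2%) were whole multiples of 0.017 (tolerance 0.0002), and the other 14 sat at 1.40, the lowest value of any peak. Distances placed the TSS of all 4806 transcripts named by 2 or more peaks (tolerance 2 bp) out of 9360, and only these were searched for flanking genes. GRCr8 served for names (6375 of 8094 matched), gene order, gene spans and promoters, and no position was carried between builds. Intervals are 95% and cover counting error only, and those of shares and medians count each peak as 1 unit. No p-value was computed. The flanking genes of 1 group are not reported here. Named peaks and genes are the 10 strongest, 5 widest and 5 farthest peaks, those at the limit, the 10 symbol genes with most members, the 5 largest runs and up to 4 genes per list. Counts per gene used gene identifiers, since names such as U6 join many loci. Alternatives varied the distance limit, microRNA names, q, fold, merging, scaffolds, gap and strength measure.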

Additional observations from a re-analysis of the deposited data

How the results depend on the processing

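Results were recomputed under the alternatives, 1 at a time, and 41 of 74 values stayed within the main interval, or for counts within 1.5 times. No paired analysis was possible because the ChIP and input libraries share a number but only the ChIP library had values and each group had 1 sample. Sequence features of peaks were not run for want of an rn6 genome. With a distance limit of 50 kb the share of all peaks was 10.9%, genes with 5 or more members 188, list genes with a member 31 and placeholder genes 45.0%. With 200 kb the share was 0.975%, the median fold 3.99, its difference from all other peaks -0.146 (main -0.0597), the median width 364 bp, genes with 5 or more 16 and list genes 4. Requiring a −log10 q of 5 gave a share of 3.31%, a median fold of 5.19, a width of 550 bp, 46.7% upstream, 63.8% with a neighbour, 10 genes with 5 or more, 7 list genes and 20.7% at 6-fold or more. Requiring a fold of 4 gave a difference of -0.128, a width of 376 bp, 65.7% with a neighbour and 26 genes with 5 or more. Merging peaks within 1000 bp gave a median fold of 4.23, a width of 392 bp, 37 genes with 5 or more and 6.90% at 6-fold or more. A gap of 5000 bp left 69.7% with a neighbour and 25000 bp 81.0%. With −log10 q in place of fold the difference was -0.270. Chosen after seeing the data, leaving out the 75 members of AABR07064980.1 gave a share of 3.97%, 54.0% upstream and 46.3% placeholder genes, and the ratio without the caller's added 1 reversed the difference to 0.0603. Stricter cuts leave fewer peaks, which lowers the counts of genes and neighbours by construction. The members' depth, 13 reads at the median summit, limits the order of single peaks, and a missing peak means no call at this depth.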
